A study of Mus musculus with 12 samples.

Results

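The Myc, Max and Mxd network was examined in mouse lymphomas at end stage (strain C57BL/6). All of them, Smchd1 wildtype and Smchd1 null, carried Eµ-Myc, a transgene that places Myc under the Igh enhancer and so expresses it in the B lineage. Null lymphomas were in addition homozygous for a gene trap allele of Smchd1, which encodes a chromatin protein of the SMC family. Gene expression was measured on 12 Illumina arrays, 1 for each lymphoma, with 6 lymphomas in each group. The tissue was fresh and the cells were sorted, by markers that the labels do not name, and no age of the mice is given. Nothing in the labels says that replicates are different mice, so p-values measure the spread between these samples.

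The members were chosen by name. All probes listed under MYC, MYCN, MYCL1, MAX, MXD1, MXD3, MXD4, MXI1, MNT or MGA were taken, which gave 14 probes for 10 genes out of 45281 probes and 30774 target names on the array. Of these, 10 probes for 8 genes were detected on at least 3 of the 12 arrays and entered the tests. A probe was called detected where its detection p against the negative controls of its array was under 0.05.

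Myc, Mycn and Mycl are basic helix-loop-helix leucine zipper proteins that bind DNA as dimers with Max, at the E-box CACGTG, and mostly activate genes of growth and proliferation. Mxd1, Mxd3, Mxd4, Mxi1 and Mnt also pair with Max and recruit Sin3 and histone deacetylases to repress genes with the same sites, and Mga is a large Max partner that also carries a T-box domain. In B cells Myc rises with activation, and Mxd proteins are known for their part in differentiating or resting cells. Whether a probe reads transgenic or endogenous Myc RNA was not tested.

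The E-box is the sequence that the network binds, so the promoters of its own genes were searched for it. The motif CACGTG, which reads the same on both strands, was sought in the 250 bases upstream of each RefSeq start (GRCm38.p6). Of the network genes, 9 had at least 1 such window, with 11 windows among them, and Myc had none. The motif was in 2 of these 11 windows, those of Mxd4 and Mnt. Of all 32851 windows of that length, 6.02% held it. Promoters are shown for both genes with the motif and for Mycl and Mxd3, which had the largest ranges between lymphomas with 1 probe a gene. Capitals mark the E-box, whose first base lay 219 bases before the start in Mxd4 and 123 before it in Mnt. The Mxd4 window is chr5:34187711-34187960 on the minus strand and the Mnt window chr11:74830674-74830923 on the plus strand. The Mycl window is chr4:122995681-122995930 on the plus strand and the Mxd3 window chr13:55329732-55329981 on the minus strand. A match is a description of the letters in the window and not of a bound site.
Mxd4 promoter: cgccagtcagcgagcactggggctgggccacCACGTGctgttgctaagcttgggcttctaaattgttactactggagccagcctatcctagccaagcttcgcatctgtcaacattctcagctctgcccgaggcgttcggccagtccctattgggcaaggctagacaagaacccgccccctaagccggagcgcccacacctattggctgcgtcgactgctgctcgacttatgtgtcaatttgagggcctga
Mnt promoter: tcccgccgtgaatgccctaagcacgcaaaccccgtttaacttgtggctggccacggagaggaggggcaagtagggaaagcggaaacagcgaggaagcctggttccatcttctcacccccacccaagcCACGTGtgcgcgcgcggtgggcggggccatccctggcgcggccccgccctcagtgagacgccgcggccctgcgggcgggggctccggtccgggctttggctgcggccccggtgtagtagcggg
Mycl promoter: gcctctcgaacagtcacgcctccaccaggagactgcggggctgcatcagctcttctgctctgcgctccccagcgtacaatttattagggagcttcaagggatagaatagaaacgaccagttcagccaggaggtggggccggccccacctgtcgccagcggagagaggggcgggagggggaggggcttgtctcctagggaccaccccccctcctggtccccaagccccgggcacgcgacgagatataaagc
Mxd3 promoter: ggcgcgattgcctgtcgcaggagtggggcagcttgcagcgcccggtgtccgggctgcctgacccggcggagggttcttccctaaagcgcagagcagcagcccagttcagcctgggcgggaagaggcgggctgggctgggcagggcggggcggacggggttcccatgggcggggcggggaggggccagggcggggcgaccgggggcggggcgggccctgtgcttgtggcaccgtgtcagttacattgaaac

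The labels were checked on Smchd1 itself, whose log2 intensity was 10.15 ± 0.31 in the wildtype and 5.78 ± 0.67 in the null group (SD, 6 lymphomas a group), with no overlap. Between 14905 and 17724 probes were detected on each array. Each BeadChip held 3 lymphomas of each group, and mean raw intensity was 523.9 to 599.1 on BeadChip 1 and 254.6 to 468.8 on BeadChip 2. B cell markers were present in every lymphoma, and the mean of the 11 tested markers ran from 8.44 to 11.32. It was lowest in wildtype replicate 2 (8.44), null replicate 2 (8.48) and null replicate 5 (9.15), against 10.25 to 11.32 in the others. The mean of 9 T cell markers was highest in null replicate 1 (10.23), followed by wildtype replicates 1 (8.63) and 6 (8.62), and lay between 5.55 and 7.19 elsewhere. These lymphomas are named below where a member's values turn on them, and fewer cells of a type and less RNA per cell cannot be told apart in such bulk samples.

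No member of the network differed between null and wildtype lymphomas beyond the spread between lymphomas. Of the 8 genes tested, 0 passed an adjusted p of 0.05 (limma, Benjamini-Hochberg over all 12822 genes tested), where 0.0234% of all genes were called, 0.0078% as higher and 0.0156% as lower in null lymphomas. None had an unadjusted p under 0.05 either, against 1.46% of all genes, and for 0 of the 8 did the groups fail to overlap, against 0.0858% of all genes. The log2 change was above 0 for 2 members and below 0 for 6, where 49.9% of all genes were above and 50.1% below 0. Probe by probe, 0 of the 10 tested probes passed, where 0.0159% of all 18921 probes did, and 0 had an unadjusted p under 0.05, against 1.43%. Over the 12 lymphomas 4 of the 8 members (Mycl, Mxd3, Mxd4 and Myc) ranged over more than 2 log2 units, as did 31.8% of all genes.

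**Figure D1:**
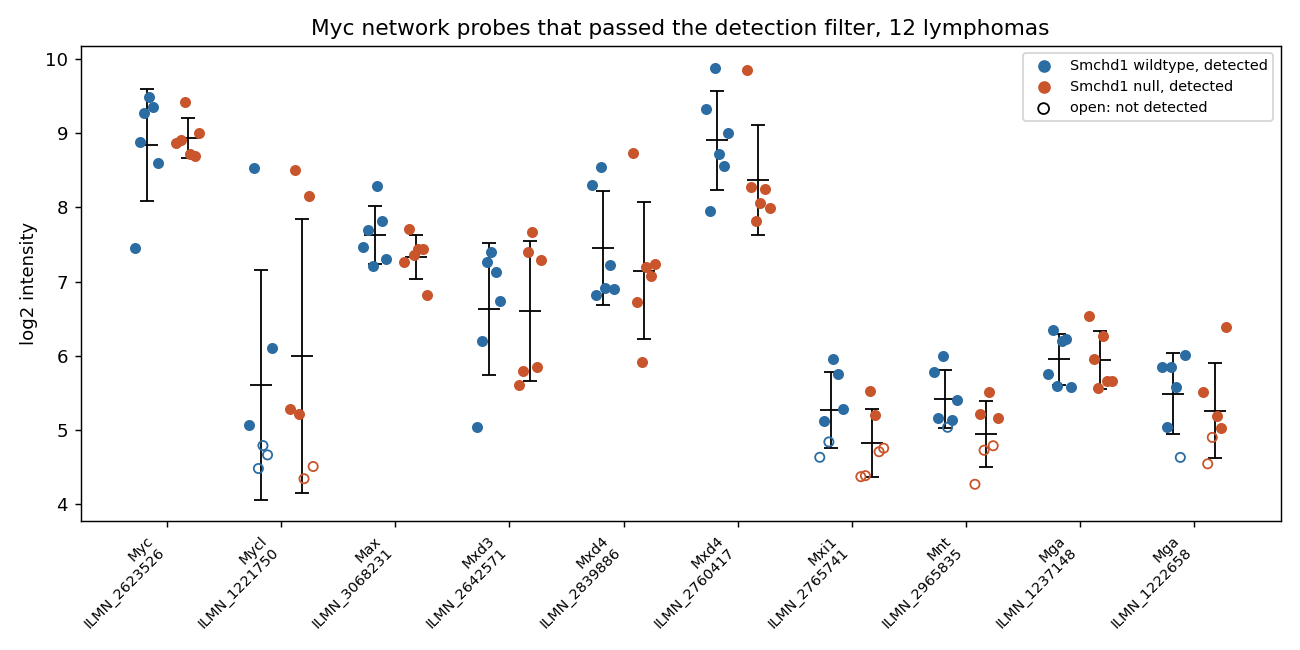
Log2 intensity (vertical axis) of the 10 probes of the network that passed the detection filter, with 1 point per lymphoma, wildtype in blue and null in orange; open points are not detected, and black bars are the mean and SD of 6 lymphomas. The groups overlap for every probe, Mycl is split between 3 lymphomas above 8 and the others, and heights of different probes are not comparable.

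The Myc oncogene was read by 1 informative probe, ILMN_2623526, which was detected on all 12 arrays. Its level in wildtype replicates 1 to 6 was 7.46, 8.89, 9.28, 9.48, 9.35 and 8.60 (log2 intensity). In null replicates 1 to 6 it was 8.86, 8.91, 9.42, 8.72, 8.70 and 9.01. Wildtype replicate 1 stood below all others, and the remaining wildtype values spanned the null values. Wildtype lymphomas averaged 8.84 ± 0.75 and null ones 8.94 ± 0.26 (SD, n = 6 each), a null-minus-wildtype difference in log2 of 0.094 ± 0.31 (SE, limma, adjusted p = 1.000) and a 95% interval from -0.58 to 0.77. Without wildtype replicate 1 the log2 change turned to -0.18. Wildtype replicate 1 was also the second highest in the T cell marker mean and the highest in the B cell marker mean. It was highest as well in the mean of 5 tested NK cell markers (7.97, followed by 7.52 in wildtype replicate 6). The part of any of these cells in its low Myc level was not tested. The other Myc probe, ILMN_1231123, was not detected on any array, with log2 intensities of 4.30 to 4.92.

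Mycn, the paralog known from neuroblastoma, was not detected on any of the 12 arrays. Its probe lay between 4.33 and 4.77 (log2 intensity), which is the background of the array. The data therefore give no order of lymphomas for Mycn.

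Mycl, the third Myc gene, varied most among the members. Its probe (ILMN_1221750) was at 5.07, 8.53, 4.48, 4.79, 4.67 and 6.11 in wildtype replicates 1 to 6 (log2 intensity). It was at 5.29, 8.50, 5.22, 4.35, 8.15 and 4.51 in null replicates 1 to 6. Wildtype replicate 2, null replicate 2 and null replicate 5 thus stood far above the others, wildtype replicate 6 lay between, and both groups held high and undetected lymphomas. Mycl was detected in 3 wildtype and 4 null lymphomas, and the lowest values are not above background. Of all 12822 genes, 94.4% had a smaller range over the lymphomas. The group means were 5.61 ± 1.54 and 6.00 ± 1.84 (SD, n = 6 each), a null-minus-wildtype difference in log2 of 0.39 ± 0.87 (SE, limma, adjusted p = 1.000) and a 95% interval from -1.49 to 2.28. The log2 change was -0.36 on BeadChip 1 and 1.14 on BeadChip 2.

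The 3 lymphomas with Mycl above 8 were those with the lowest B cell marker means, as given above. The mean of 8 tested macrophage markers was also highest in them. It was 7.25 in wildtype replicate 2, 8.07 in null replicate 2 and 6.76 in null replicate 5, against 4.94 to 6.41 elsewhere. Cd68, Mpeg1, Adgre1 and Cd14 had both their highest and second highest values among these 3 lymphomas. Lyz2, C1qa, C1qb and Csf1r did not, with C1qb highest in wildtype replicate 1. Among these markers, Cd68 ran from 5.02 to 11.74 and was highest in wildtype replicate 2. Csf1r stayed between 4.45 and 5.83 and was lowest in wildtype replicate 2. It was detected in only 3 wildtype and 3 null lymphomas, so part of its order lies at background. Marco, also a macrophage marker, did not pass the detection filter. The part of other cells in the Mycl signal was not tested.

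**Figure D2:**
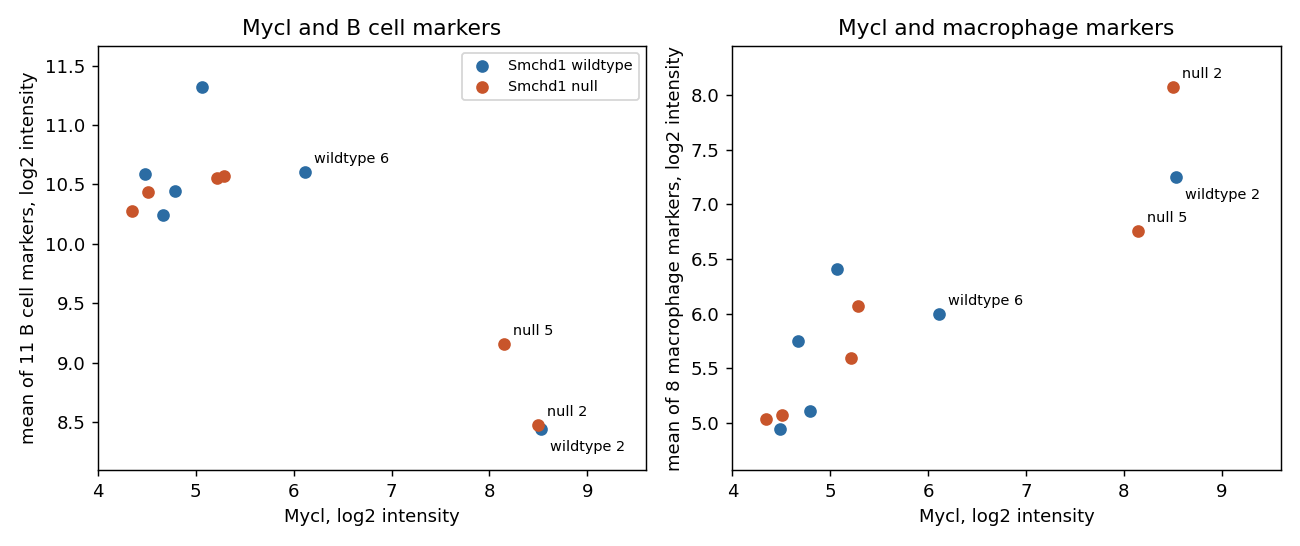
Mycl log2 intensity (horizontal axes) against the mean log2 intensity of 11 B cell markers (left) and 8 macrophage markers (right), 1 point per lymphoma, wildtype in blue and null in orange. The lymphomas labelled wildtype 2, null 2 and null 5 lie apart at the right, with B cell marker means of 8.44, 8.48 and 9.15.

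By Pearson r over the 12 lymphomas, the genes most like Mycl among the 12821 others were the target listed as SCL0002540.1_6 (r = 0.99), Mgl2 (0.99) and Rasl11b (0.98). Mgl2, a lectin of macrophages and dendritic cells, ran from 4.30 to 9.06, with a median of 4.73. Rasl11b, a small GTPase of the Ras family, ran from 4.42 to 10.73, with a median of 5.54. The most opposed were Trib2 (r = -0.96), A730040I05RIK (-0.95) and Sdc4 (-0.95). Trib2, a pseudokinase, was at 6.29 in wildtype replicate 2, 6.92 in null replicate 2 and 6.71 in null replicate 5, against 9.16 to 11.20 elsewhere. Sdc4, a heparan sulfate proteoglycan of the cell surface, was at 5.64, 6.37 and 7.62 in the same lymphomas, in that order, and at 10.22 to 11.30 in the others. These genes were picked as extremes, so each r is a description. Over the other 9 lymphomas alone r was 0.88 for SCL0002540.1_6, 0.91 for Mgl2 and 0.83 for Rasl11b, and -0.64 for Trib2, -0.50 for A730040I05RIK and -0.44 for Sdc4.

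Max, the common partner, was detected on all arrays. It was at 7.46, 7.69, 7.21, 8.29, 7.82 and 7.30 in wildtype replicates 1 to 6 (ILMN_3068231, log2 intensity). In null replicates 1 to 6 it was at 7.26, 7.71, 7.35, 7.44, 7.44 and 6.82. Wildtype replicate 4 was the highest and null replicate 6 the lowest, and the other values overlapped. The means were 7.63 ± 0.40 and 7.34 ± 0.30 (SD, n = 6 each), a null-minus-wildtype difference in log2 of -0.29 ± 0.22 (SE, limma, adjusted p = 1.000) and a 95% interval from -0.76 to 0.17. It was -0.16 without wildtype replicate 4, -0.19 without null replicate 6 and -0.19 when background was left uncorrected. Of all genes, 45.8% had a smaller range over the lymphomas than Max.

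Among the Max partners that repress, Mxd3 ranged most when each gene is read by its brightest probe (2.62 log2 units), and the dimmer Mxd4 probe ranged over 2.82. Mxd3, which unlike the other Mxd proteins is known from cells in S phase, was detected on all arrays by ILMN_2642571. It was at 5.04, 6.20, 7.26, 7.40, 7.13 and 6.74 in wildtype replicates 1 to 6 and at 5.61, 5.80, 7.39, 7.66, 5.86 and 7.29 in null replicates 1 to 6 (log2 intensity). Each group held low and high lymphomas, and the lowest was wildtype replicate 1, which was also lowest in Myc. The means were 6.63 ± 0.89 and 6.60 ± 0.94 (SD, n = 6 each), a null-minus-wildtype difference in log2 of -0.027 ± 0.48 (SE, limma, adjusted p = 1.000) and a 95% interval from -1.07 to 1.01. Within BeadChips the log2 change ran in opposite directions, 0.77 on BeadChip 1 and -0.82 on BeadChip 2.

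The genes most like Mxd3 over the lymphomas were Ncaph (r = 0.97), Psmc5 (0.97) and Cenph (0.96). Ncaph, a subunit of the mitotic condensin complex, ran from 8.26 to 11.82 with a median of 10.49. Cenph, a kinetochore protein, ran from 5.02 to 7.50 with a median of 6.75, and Psmc5, an ATPase of the proteasome, from 10.59 to 11.62. All 3 were lowest in wildtype replicate 1 and highest in null replicate 4, as was Mxd3. Because genes were picked by their r with Mxd3, each r and the shared extremes are a description. The most opposed were Mob3a (r = -0.97), Map3k14 (-0.97) and Bcl2a1d (-0.96). Map3k14, the NF-kB-inducing kinase, ran from 6.72 to 9.45, and Bcl2a1d, of a family of survival genes, from 4.70 to 10.13. Bcl2a1d has near-identical copies, and its probe may read more than 1 of them.

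Mxd4, a repressor known from quiescent and differentiating cells, was read by 2 probes that were detected on all arrays. The brighter, ILMN_2760417, was at 9.33, 7.95, 9.88, 8.72, 8.56 and 9.0 in wildtype replicates 1 to 6 (log2 intensity). In null replicates 1 to 6 it was at 9.85, 8.28, 7.81, 8.06, 8.25 and 7.99. Wildtype replicate 3, null replicate 1 and wildtype replicate 1 were the highest, and the other null values lay at or below most wildtype values. The means were 8.90 ± 0.67 and 8.37 ± 0.74 (SD, n = 6 each), a null-minus-wildtype difference in log2 of -0.53 ± 0.38 (SE, limma, adjusted p = 1.000) and a 95% interval from -1.35 to 0.29. The log2 change was -0.95 on BeadChip 1 and -0.11 on BeadChip 2, and it moved to -0.83 without null replicate 1 (unadjusted p = 0.0173, adjusted p = 1.000, limma) and to -0.34 without wildtype replicate 3 (unadjusted p = 0.381, adjusted p = 1.000, limma).

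The second probe, ILMN_2839886, followed the first over the 12 lymphomas (r = 0.86). It was highest in null replicate 1 (8.74), wildtype replicate 3 (8.55) and wildtype replicate 1 (8.30), against 5.92 to 7.24 in the others. The null-minus-wildtype difference in log2 of this probe was -0.30 ± 0.44 (SE, limma over all probes, unadjusted p = 0.509). A further probe, listed under a former name of the gene and therefore outside the rule (ILMN_1243249), was highest in the same lymphomas, at 12.52 in null replicate 1, 12.26 in wildtype replicate 1 and 12.10 in wildtype replicate 3. Its null-minus-wildtype difference in log2 was -0.27 ± 0.43 (SE, limma over all probes, adjusted p = 1.000). T cell markers were high in null replicate 1 and wildtype replicate 1, as given above. Wildtype replicate 3 had the second lowest T cell marker mean (6.14). The part of T cells, or of other cells, in the Mxd4 level of these lymphomas was not tested.

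**Figure D3:**
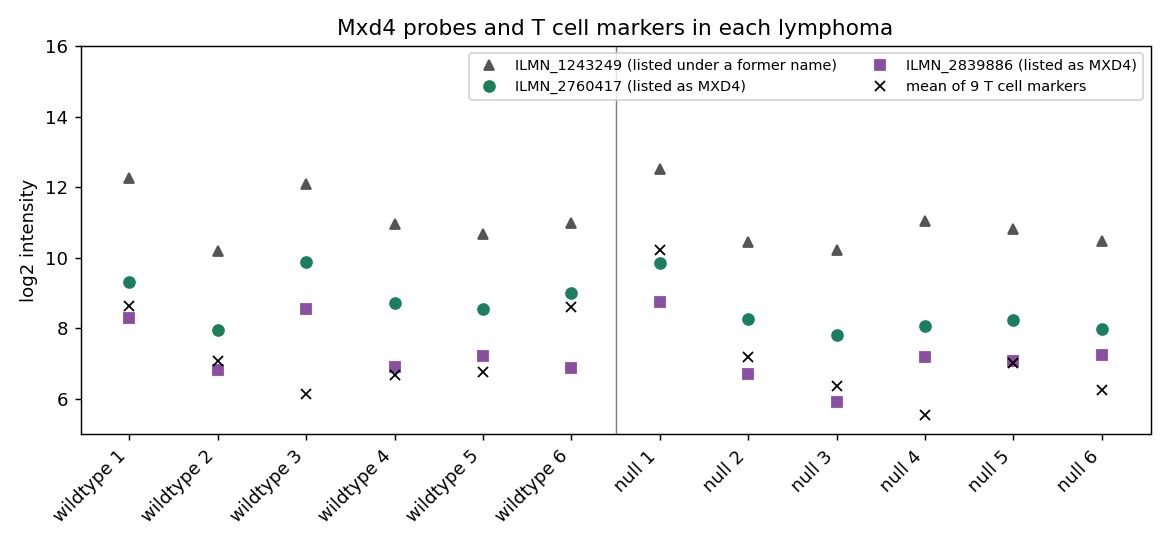
Log2 intensity (vertical axis) of 3 Mxd4 probes and the mean of 9 T cell markers in each of the 12 lymphomas (horizontal axis). All 3 probes are highest in wildtype 1, wildtype 3 and null 1, where the T cell marker mean is 8.63, 6.14 and 10.23, in that order. Heights of different probes are not comparable.

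Mnt, the widely expressed repressor that counters Myc in most tissues, had the smallest unadjusted p of the members (0.0746, adjusted p = 1.000, limma). ILMN_2965835 was at 5.79, 5.16, 6.00, 5.04, 5.14 and 5.40 in wildtype replicates 1 to 6 and at 4.27, 5.21, 4.73, 5.51, 4.79 and 5.17 in null replicates 1 to 6 (log2 intensity). The groups overlapped, and detection on 5 wildtype and 3 null arrays places the probe near background. Null minus wildtype came to -0.47 ± 0.24 (SE, limma) with a 95% interval from -1.0 to 0.054. It was -0.49 on BeadChip 1 and -0.46 on BeadChip 2, and shrank to -0.17 without background correction; without null replicate 4 it was -0.59 (unadjusted p = 0.0330, adjusted p = 1.000, limma).

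Mxi1, also called Mad2 in older work, was likewise dim. ILMN_2765741 was at 4.63, 5.13, 4.84, 5.96, 5.76 and 5.29 in wildtype replicates 1 to 6 and at 4.37, 4.39, 5.53, 5.21, 4.71 and 4.76 in null replicates 1 to 6 (log2 intensity). It was detected in 4 wildtype and 2 null lymphomas, which overlapped in level. Null minus wildtype came to -0.44 ± 0.28 (SE, limma, adjusted p = 1.000), with a 95% interval from -1.04 to 0.16, and with BeadChips taken alone it was 0.023 (BeadChip 1) and -0.90 (BeadChip 2). Left uncorrected for background it was -0.15, and with median scaling -0.16. The second Mxi1 probe, ILMN_2737256, was not detected on any array.

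The probe listed as MXD1 (ILMN_1224997) was detected in 1 lymphoma, wildtype replicate 5, at 5.25. The RefSeq table gives Mad as a former name of Mxd1, and of the 2 probes listed as MAD, outside the rule, ILMN_1232668 was detected on 11 arrays. It was at 6.21, 5.77, 5.71, 4.71, 5.46 and 5.30 in wildtype replicates 1 to 6 and at 5.58, 5.5, 5.84, 6.57, 5.76 and 5.62 in null replicates 1 to 6 (log2 intensity). Null replicate 4 was the highest and wildtype replicate 4 the lowest, with the rest overlapping. Null minus wildtype came to 0.28 ± 0.26 (SE, limma, adjusted p = 1.000), with a 95% interval from -0.28 to 0.85. It was 0.12 without wildtype replicate 4, 0.13 without null replicate 4, 0.087 on BeadChip 1, 0.48 on BeadChip 2 and 0.094 when background was left uncorrected.

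Mga was read by 2 probes that did not follow each other over the lymphomas (r = -0.35). ILMN_1237148, detected on all arrays, had the narrowest range of the members tested, from 5.57 to 6.54 (log2 intensity). Wildtype lymphomas averaged 5.95 ± 0.35 and null ones 5.95 ± 0.39 (SD, n = 6 each), a null-minus-wildtype difference in log2 of -0.0056 ± 0.22 (SE, limma, adjusted p = 1.000) and a 95% interval from -0.49 to 0.48. ILMN_1222658 was detected on 9 arrays, ran from 4.55 to 6.39, and had a log2 change of -0.23 ± 0.32 (SE, limma over all probes, adjusted p = 1.000). Null replicate 6 was highest in the second probe and among the lowest in the first.

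**Figure D4:**
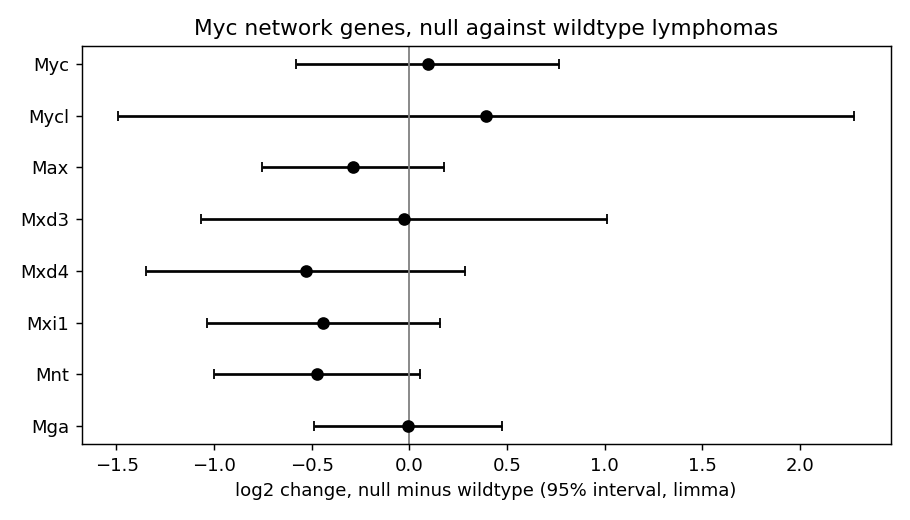
Log2 change, null minus wildtype (horizontal axis), of the 8 network genes with a tested probe, with 95% intervals from limma over 6 lymphomas a group. Every interval includes 0, the narrowest for Max (-0.76 to 0.17) and the widest for Mycl (-1.49 to 2.28).

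Whether members excluded or followed each other was asked over the 12 lymphomas with 28 pairs of the 8 tested genes. With a two-sided permutation test of Pearson r and Benjamini-Hochberg adjustment over the 28 pairs, 0 passed, and 2 had an unadjusted p under 0.05. By Spearman's rho 0 passed as well, and 2 had an unadjusted p under 0.05. Of the 28 pairs 1 reached an r of 0.7 in either sign, or 3.57%, where 4.94% of all pairs of tested genes did. The Mycl values fell into separate clusters, so for its 7 pairs r is given within the other 9 lymphomas, a split made after the values were seen. Of these 7 pairs 0 passed (two-sided exact permutation test, adjusted over the 7), and r ran from -0.42 for Mxd3 (exact p = 0.264, adjusted p = 0.819) to 0.22 for Mxd4 (exact p = 0.585, adjusted p = 0.819). By rank over all 12 lymphomas, Mycl and Mxd3 had the most negative Spearman's rho of the 28 pairs, -0.63 (permutation p = 0.0326, adjusted p = 0.457). Over the 9, rho was -0.57 (exact permutation p = 0.121, adjusted p = 0.622). Pearson r of this pair over all 12, clusters of Mycl included, was -0.54 (permutation p = 0.0697, adjusted p = 0.465). It ran from -0.76 to -0.48 with 1 lymphoma left out. Without null replicate 1 and wildtype replicate 1, the farthest from the median in Mxd3, it was -0.96, so it depended on which lymphomas were included. The 3 lymphomas of high Mycl had Myc levels of 8.89 (wildtype replicate 2), 8.91 (null replicate 2) and 8.70 (null replicate 5), inside the range of the others.

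The largest r was that of Myc and Mxd3, at 0.70 (permutation p = 0.00522, adjusted p = 0.146; Spearman's rho 0.58, p = 0.0512, adjusted p = 0.477). It was 0.95 in wildtype and 0.38 in null lymphomas alone, 0.77 on BeadChip 1 and 0.70 on BeadChip 2. Without null replicate 1 and wildtype replicate 1, the lymphomas farthest from the median in Mxd3, r was 0.49, so the relation rests in part on them. It was 0.50 without wildtype replicate 1 alone and 0.80 without null replicate 4, when it passed over the pairs (permutation test, adjusted p = 0.0288).

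Mxd3 and Mxi1 had an r of 0.69 (permutation p = 0.0152, adjusted p = 0.213; Spearman's rho 0.75, p = 0.00685, adjusted p = 0.192). It was 0.69 in wildtype and 0.83 in null lymphomas, and 0.54 and 0.97 on BeadChips 1 and 2. Without null replicate 1 and wildtype replicate 1 it was 0.59, and with median scaling 0.47. Mxi1 was detected on 6 of 12 arrays, so part of its order lies at background. Myc and Max had an r of 0.22 (permutation p = 0.446, adjusted p = 0.874; Spearman's rho 0.20, p = 0.530, adjusted p = 0.823). Without null replicate 6 and wildtype replicate 4, the farthest in Max, it was 0.075. Of the repressors with Myc, Mnt had an r of -0.33 (permutation p = 0.290, adjusted p = 0.781; Spearman's rho -0.34, p = 0.289, adjusted p = 0.823). Mxd4 had an r of -0.23 with Myc (permutation p = 0.499, adjusted p = 0.874; Spearman's rho -0.21, p = 0.517, adjusted p = 0.823). Without null replicate 1 and wildtype replicate 3, the farthest from the median in both repressors, r was -0.75 for Mnt and -0.59 for Mxd4. With 1 lymphoma left out it ran from -0.56 to 0.016 for Mnt and from -0.42 to 0.042 for Mxd4. Neither pair passed the test over all 12 lymphomas, and r depended on which lymphomas were included.

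**Figure D5:**
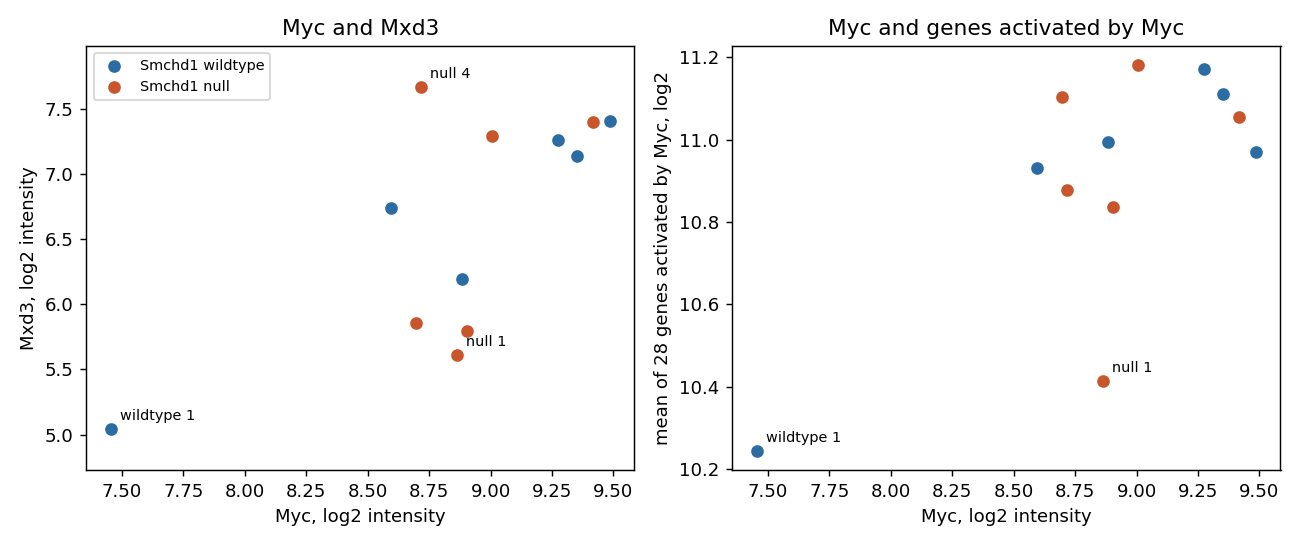
Myc log2 intensity (horizontal axes) against Mxd3 log2 intensity (left) and the mean log2 intensity of 28 genes activated by Myc (right), 1 point per lymphoma, wildtype in blue and null in orange. Wildtype 1 is lowest on all axes, with Myc at 7.46, Mxd3 at 5.04 and the mean at 10.24, and without it r falls from 0.70 to 0.50 on the left and from 0.72 to 0.34 on the right.

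By Pearson r over the lymphomas, the genes most like Myc were Mta1 (r = 0.96), BC002163 (0.96) and Tyms (0.94). Mta1, a subunit of the NuRD repressor complex, ran from 6.25 to 8.32 with a median of 7.74. Tyms, thymidylate synthase, which makes dTMP for DNA replication, ran from 8.14 to 11.79 with a median of 10.82. The most opposed were Arhgap17 (r = -0.96), Dock8 (-0.95) and Tut7 (-0.90). Dock8, a guanine nucleotide exchange factor of lymphocytes, ran from 5.73 to 8.63. All 6 had their extreme value on the side of low Myc in wildtype replicate 1, where Tyms was at 8.14 and Dock8 at 8.63. Because the genes were picked by their r with Myc, which was lowest in that lymphoma, each r and the shared extreme are a description.

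The other genes of the pathway, from 4 lists, had 0 members that passed between the groups and 0 with an unadjusted p under 0.05 by limma, against 1.46% of all genes. Of 28 tested genes known to be activated by Myc, 19 had positive and 9 negative log2 changes, with a median of 0.056 beside -0.00046 over all genes. The smallest p-values among them were those of Ccnd2 (cyclin D2), with a log2 change of -1.38 ± 1.12, and Hspd1, the mitochondrial chaperonin, at 0.23 ± 0.23 (SE, limma, adjusted p = 1.000). Of 14 genes repressed by Myc, 5 had positive and 9 negative log2 changes, with a median of -0.019. Gadd45a, a stress-response gene, was at -0.82 ± 0.41 and Cebpa, a myeloid transcription factor, at 0.46 ± 0.27 (SE, limma, adjusted p = 1.000).

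Of 19 cofactors and Mlx-branch genes, 8 had positive and 11 negative log2 changes, with a median of -0.088. Hdac2, a histone deacetylase recruited by Mxd proteins through Sin3, was at 0.25 ± 0.23 and Mlxipl, the glucose-responsive partner of Mlx, at -0.27 ± 0.24 (SE, limma, adjusted p = 1.000). Of 19 genes for turnover of the Myc protein, 13 had positive and 6 negative log2 changes, with a median of 0.024. Huwe1, a ubiquitin ligase for Myc, was at -0.43 ± 0.23 and Fbxo32, an F-box protein, at -0.64 ± 0.35 (SE, limma, adjusted p = 1.000).

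Over the lymphomas, Myc was set against the mean of each of these 4 lists, a relation added after the values were seen. For the genes activated by Myc r was 0.72 (permutation p = 0.0137, adjusted over the 4 lists 0.0273; Spearman's rho 0.52, p = 0.0834, adjusted p = 0.167). It was 0.93 in wildtype and 0.24 in null lymphomas, and 0.96 and 0.53 on BeadChips 1 and 2. Without wildtype replicates 1 and 4, the farthest from the median in Myc, r was 0.39, and without wildtype replicate 1 alone it was 0.34 (permutation test, adjusted p = 0.439), so this relation rests on that lymphoma. The list mean was 10.24 in wildtype replicate 1 and 10.41 in null replicate 1, against 10.84 to 11.18 in the others.

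For the genes of Myc turnover r was 0.88 (permutation p = 0.00085, adjusted p = 0.0034; Spearman's rho 0.69, p = 0.0152, adjusted p = 0.0610). It was 0.97 in wildtype and 0.45 in null lymphomas, and 0.90 and 0.89 on BeadChips 1 and 2. It was 0.61 without wildtype replicates 1 and 4, and 0.70 without wildtype replicate 1 (permutation test, adjusted p = 0.0869). Without the lymphomas of highest T cell marker level (wildtype replicates 1 and 6, null replicate 1) it was 0.68 (permutation test, adjusted p = 0.241). The relation thus rests in part on these lymphomas. Of 12821 single genes, 1206 had an r of 0.7 or more in either sign with Myc. The lists of cofactors (r = -0.14, permutation p = 0.650, adjusted p = 0.650; Spearman's rho -0.014, p = 0.974, adjusted p = 0.974) and of repressed genes (r = 0.22, p = 0.500, adjusted p = 0.650; rho 0.38, p = 0.216, adjusted p = 0.288) did not pass. Without wildtype replicates 1 and 4, r was -0.058 for the cofactors and 0.71 for the repressed genes.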

How the data were processed

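Total RNA (RNeasy micro kit) was amplified to biotinylated cRNA, per the labels. Each deposited intensity is the mean over a probe's beads on MouseWG-6 version 2 BeadChips, exported from GenomeStudio 1.6.0 without normalization, per the file headers. The deposited detection values are a fraction, 1 minus the detection p-value. The deposited log2 values equal the values computed here to within rounding; BeadStudio, R 2.15.1 and limma 3.12.1 are named in the submitters' processing notes.

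With limma 3.58.1 in R 4.3.3, intensities were background-corrected by normexp with 936 negative controls, offset by 16, quantile normalized and put on the log2 scale (neqc). Probes detected on at least 3 arrays were kept (18921), with the probe of highest mean for each of 12822 genes; for network genes only probes named by the rule were eligible, except for Mxd1. Null minus wildtype was fitted with lmFit and eBayes, without covariates. Adjusted p-values near 1 are printed as 1.000. Correlations used 100000 permutations, or all 720 orders with 6 lymphomas. The fit was tested on simulated data. The number of arrays limits the precision.

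Named genes are the members, the 2 genes of smallest p in each list, and the 3 genes most like and most opposed to Myc and the 2 members of largest range. Members and lists were chosen with earlier results of these data known. Probe sequences and protein sequences were not used here.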

Additional observations from a re-analysis of the deposited data

Results flagged for a closer look

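In the highest or lowest of the 6 lymphomas of a group, 3 values lay far from the nearest other value among 24 groups of values examined, where chance gives about 1 in 20. The groups are not independent, since some are probes of the same gene and both Mxd4 values come from null replicate 1. The count therefore cannot be read as an excess over chance. The Mxd4 probe ILMN_2760417 was at 9.85 in null replicate 1, against 8.28 in the next highest null lymphoma, a gap of 0.771 of the range. The Mxd4 probe listed under a former name (ILMN_1243249) was at 12.52 in the same lymphoma, against 11.04, a gap of 0.647 of the range. The Mxd1 probe listed as MAD (ILMN_1232668) was at 6.57 in null replicate 4, against 5.84, a gap of 0.684 of the range. Null replicate 1 also had the highest T cell marker mean (10.23) and the highest neutrophil marker mean (9.04). Its erythroid marker mean (8.59) was second to that of null replicate 2 (8.84). The part of these cells in its Mxd4 level was not tested.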

How the results depend on the processing

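Under all 25 alternatives 0 network genes passed, and at most 1 had an unadjusted p under 0.05 by limma. The count of all genes called, and likewise of probes, moved from 3 to 1 on BeadChip 1 alone and 0 on BeadChip 2 alone (380 genes and 540 probes with an unadjusted p under 0.05 by limma), and ran from 3 to 5 when 1 lymphoma was left out, with 5 without wildtype replicate 2. It was 5 without the lymphomas of lowest B cell marker level (wildtype replicate 2, null replicates 2 and 5) and 1 without those of highest T cell marker level (wildtype replicates 1 and 6, null replicate 1), both chosen after seeing the data. The log2 changes of Mga, Mxd3, Mxi1, Mycl and Myc turned sign in some settings, and the cause was not tested. With 1 lymphoma left out, Mga ran from -0.12 to 0.074, Mxd3 from -0.34 to 0.17, Myc from -0.18 to 0.22 and Mycl from -0.11 to 0.98. Mga was at 0.00010 without background correction, 0.027 with median scaling, 0.020 on BeadChip 2 and 0.14 without the lymphomas of lowest B cell marker level. Mxd3 was at 0.15 with median scaling, 0.77 on BeadChip 1 and 0.27 without the lymphomas of lowest B cell marker level. Mxi1 was at 0.023 on BeadChip 1. Mycl was at -0.36 on BeadChip 1 and -0.18 without the lymphomas of lowest B cell marker level. Myc was at -0.081 on BeadChip 2, -0.027 with array weights and -0.30 without the lymphomas of highest T cell marker level. Pairs called ran from 0 to 1 with 1 lymphoma left out. For Myc with the cofactor list r turned to 0.10 without background correction, 0.050 with median scaling, 0.30 on BeadChip 2, 0.12 without the lymphomas of highest T cell marker level and 0.087 without wildtype replicate 1, in a range of -0.25 to 0.087 with 1 lymphoma left out. For Myc with the repressed genes r was -0.0093 without background correction. The labels do not say that replicate numbers pair the lymphomas, and the expression values cannot decide it. Deviations of same-numbered lymphomas correlated at -0.26 to 0.68, and 2 of 6 wildtype lymphomas correlated best with their own number. With the replicate number as a block 3 genes, 3 probes and 0 network genes were called, the same counts as without it. Dim probes (Mnt, Mxi1, Mycl) are limited by signal over background.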
